A study of Homo sapiens with 8 samples.

Results

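RNA-Seq read counts were examined for the genes of human chromosome 13 in BEAS-2B cells, an immortalised line of bronchial epithelial cells that serves as a model of airway epithelium. All 530 genes that the files placed on chromosome 13 were taken, in the order of their start (hg19), of 25411 genes in all (2.09%). The chromosome was chosen by the measured changes of the nickel groups against untreated cells, so those changes are given here as a description and no P value is attached to them. No read was seen in any library for 163 of the 530 genes, 126 had some reads but a mean count under 10, and 32 had a mean count of 10 to under 50. The remaining 209 genes (39.4%) had a mean of at least 50 reads over the 8 libraries and are called expressed below. Of all genes, 12055 (47.4%) passed the same minimum.

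The 8 libraries fell into 4 groups of 2. Untreated cells (UT) served for comparison. Cells under exposure (Ni-E) were kept in 100 µM NiCl2 over 6 weeks. Washed-out cells (Ni-W) had that exposure, after which 1 randomly chosen population, descended from a single exposed cell, grew free of nickel for over 6 months. The treatment described for HCl3 was that of Ni-W, but its own time without nickel and its relation to Ni-W were not given in the labels. Ni-W is therefore a clone, and there what wash-out did cannot be told apart from what set the founding cell apart from the others. An experiment number was given for Ni-E (2 in both libraries) and HCl3 (3 and 4) and for no library of UT or Ni-W, so experiment and group cannot be told apart. The study described its 2 libraries a group as biological replicates.

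Chromosome 13 is an acrocentric chromosome whose long arm holds its protein-coding genes, with long gene-poor stretches between clusters. It is known for the cell cycle inhibitor gene RB1, the DNA repair gene BRCA2, the type IV collagen pair COL4A1 and COL4A2, and 2 noncoding genes, MIR17HG and DLEU2, that host microRNAs of cell proliferation and survival. Nickel compounds are carcinogens of the airway that are known to stabilise hypoxia-inducible factor and to alter chromatin marks rather than to mutate DNA directly.

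The mature microRNAs of the 2 host genes are shown because these are the members with a known sequence of action, and both hosts were called between the washed-out groups, MIR17HG only with all 4 libraries. The sequences are from RefSeq (GRCh38.p14, chromosome 13), with the seed, bases 2 to 8, in capitals. The first 2 below share a seed, as do the next 2 and the last 2, while miR-18a-5p and miR-92a-3p each had a seed of their own. The 8 microRNA genes had rows of their own in the count files, each at 0 in every library, and mature microRNAs were not measured.
hsa-miR-17-5p (MIR17HG): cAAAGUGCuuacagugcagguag
hsa-miR-20a-5p (MIR17HG): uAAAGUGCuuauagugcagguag
hsa-miR-19a-3p (MIR17HG): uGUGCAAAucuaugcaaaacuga
hsa-miR-19b-3p (MIR17HG): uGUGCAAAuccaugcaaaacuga
hsa-miR-18a-5p (MIR17HG): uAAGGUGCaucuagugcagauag
hsa-miR-92a-3p (MIR17HG): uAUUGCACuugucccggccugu
hsa-miR-15a-5p (DLEU2): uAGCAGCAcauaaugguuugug
hsa-miR-16-5p (DLEU2): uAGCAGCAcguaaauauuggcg

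Promoters are shown for CCNA1, FREM2 and FRY, which were among the 5 largest increases over Ni-E in both Ni-W and HCl3 and have 1 start in RefSeq. SLAIN1 was the other such gene and has 3 starts. Each sequence is the 250 bases before the RefSeq start in GRCh38.p14, which may not be the start of the transcript in the counted annotation. Capitals mark the core of the hypoxia response element, searched as ACGTG and GCGTG on both strands. A match was present in CCNA1 and in FRY and in neither strand of FREM2. Of all 35116 RefSeq promoters of this length 43.2% held at least 1 match, and of the 489 promoters of the 362 chromosome 13 genes that could be matched by symbol 51.5% did. Of the 262 promoters of matched chromosome 13 genes that were expressed, 60.3% did. These letters are a description of the window and say nothing of a factor being bound there.
CCNA1, chr13:36431705-36431954 (+): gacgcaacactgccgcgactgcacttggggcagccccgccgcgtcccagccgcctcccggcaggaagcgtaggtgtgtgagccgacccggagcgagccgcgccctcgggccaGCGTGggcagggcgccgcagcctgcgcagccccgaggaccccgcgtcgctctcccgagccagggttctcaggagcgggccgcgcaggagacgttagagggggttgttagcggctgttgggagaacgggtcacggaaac
FREM2, chr13:38686827-38687076 (+): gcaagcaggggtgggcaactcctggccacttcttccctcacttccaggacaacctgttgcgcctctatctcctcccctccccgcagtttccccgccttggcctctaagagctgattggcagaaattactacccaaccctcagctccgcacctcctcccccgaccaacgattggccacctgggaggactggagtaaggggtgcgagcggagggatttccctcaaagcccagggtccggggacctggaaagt
FRY, chr13:32031524-32031773 (+): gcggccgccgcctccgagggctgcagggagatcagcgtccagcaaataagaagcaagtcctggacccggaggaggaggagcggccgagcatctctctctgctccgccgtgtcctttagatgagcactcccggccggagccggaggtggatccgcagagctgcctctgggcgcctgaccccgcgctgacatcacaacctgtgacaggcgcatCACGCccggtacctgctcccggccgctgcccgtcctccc

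Total counts ran from 26383920 to 45692298 reads a library, and Pearson's r of log2 normalised counts across 13856 genes was 0.990 to 0.994 between replicates and 0.937 to 0.983 between groups. Of 6 epithelial markers KRT7, KRT8 and KRT18 were high in every library, while KRT19 and the epithelial cadherin CDH1 stayed under 1 RPKM, the read count scaled by transcript length and library size, throughout. The summed RPKM of the epithelial list was 602 to 636 in UT, 579 to 794 in Ni-E, 947 to 972 in Ni-W and 934 to 996 in HCl3. The 4 blood and 3 endothelial markers stayed under 1 RPKM in every library, and their sums did not exceed 0.09 and 0.11. Of 5 fibroblast markers COL1A1 and PDGFRB were high in every library and DCN was listed at 0, and the sum was 359 to 413 in UT, 189 to 354 in Ni-E, 243 to 269 in Ni-W and 461 to 484 in HCl3. The part of these marker levels in the results below was not tested.

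Chromosome 13 took a larger share of the reads in both washed-out groups than in UT or Ni-E. The share was 1.164 and 1.242% (UT), 1.184 and 1.18% (Ni-E), 1.573 and 1.625% (Ni-W) and 1.54 and 1.499% (HCl3). All 4 washed-out libraries lay above all 4 others. In bulk RNA, more RNA of these genes in every cell and a larger number of cells that express them cannot be told apart.

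The same order was seen when each expressed gene had equal weight. The median log2 ratio of the 209 genes to the mean of UT was -0.06 and 0.06 (UT), -0.08 and -0.10 (Ni-E), 0.35 and 0.43 (Ni-W) and 0.28 and 0.25 (HCl3). The median of all expressed genes stayed between -0.03 and 0.01 in every library. With trends in GC content and length removed from each library, the chromosome 13 medians were 0.02 and -0.01 (Ni-E), 0.35 and 0.37 (Ni-W) and 0.32 and 0.33 (HCl3). The washed-out groups thus stood apart from UT on either scale, whereas Ni-E lay below UT on the first scale and between the UT libraries on the second. Expressed chromosome 13 genes had a median transcript GC content of 41.9%, against 47.7% for all expressed genes.

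**Figure D1:**
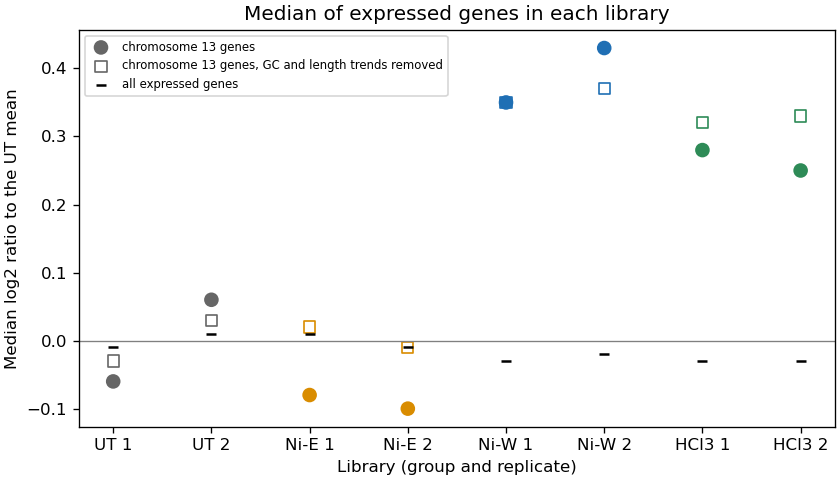
Median log2 ratio to the UT mean (vertical axis) in each of the 8 libraries (horizontal axis), with filled circles for the 209 chromosome 13 genes, open squares for the same genes after removal of GC and length trends, and dashes for all expressed genes. The 4 washed-out libraries sit between 0.25 and 0.43 while all expressed genes stay within -0.03 and 0.01.

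In Ni-W against UT the median log2 fold change of expressed chromosome 13 genes was 0.38, an increase of 30.4%, with quartiles of 0.22 and 0.65. Across all expressed genes the median was -0.03. The value was above 0 for 190 of 209 genes on chromosome 13 (90.9%), against 46.8% of all expressed genes. In HCl3 against UT the median was 0.28, an increase of 21.4%, with 187 genes above 0, and across all genes it was -0.04. In Ni-E against UT the median was -0.11 and 67 of the 208 genes with a value were above 0. The Ni-E median was -0.01 once GC and length trends were removed. Of the 209 genes 17 had a UT mean count under 50 and so passed the minimum through other groups, and over the other 192 the medians were 0.36 in Ni-W, 0.24 in HCl3 and -0.11 in Ni-E.

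Comparisons between the treated groups did not involve UT, although the Ni-E, Ni-W and HCl3 libraries all entered the contrasts by which the chromosome was chosen. P values between these groups are therefore not independent of that choice. Many genes named below were also picked for large changes in these same comparisons, so their P values are those of picked genes. Ni-W exceeded Ni-E, the median being 0.51 on the log2 scale, or 42.4%, and HCl3 exceeded Ni-E by 0.37, or 29.2%. HCl3 was below Ni-W, with a median of -0.12 and 153 of 209 genes below 0. The medians of all expressed genes were -0.02, -0.03 and -0.00 in these 3 comparisons. In each of them the medians of the 2 libraries of one group lay on one side of both libraries of the other. With 2 libraries against 2, the two-sided exact permutation test gave p = 0.333 for each, which is the smallest P value this design allows. The difference between HCl3 and Ni-W was -0.05 after removal of GC and length trends.

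No point along the chromosome was found at which the shift began or ended. The 209 genes in order were divided into runs of at least 5 genes by minimising absolute deviations from the run medians, with a penalty for every boundary. This gave 0 boundaries and 1 run in each of the 6 comparisons. The run extended from the first expressed gene, MPHOSPH8 (start 20207788), a reader of repressive histone methylation, to the last, CHAMP1 (end 115092803), a protein of kinetochore attachment. The medians of the first 5 and last 5 genes were 0.41 and 0.30 in Ni-W against UT, and 0.26 and 0.21 in HCl3 against UT. Small steps planted in simulated profiles were not divided by this method, so a small step could have been missed.

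**Figure D2:**
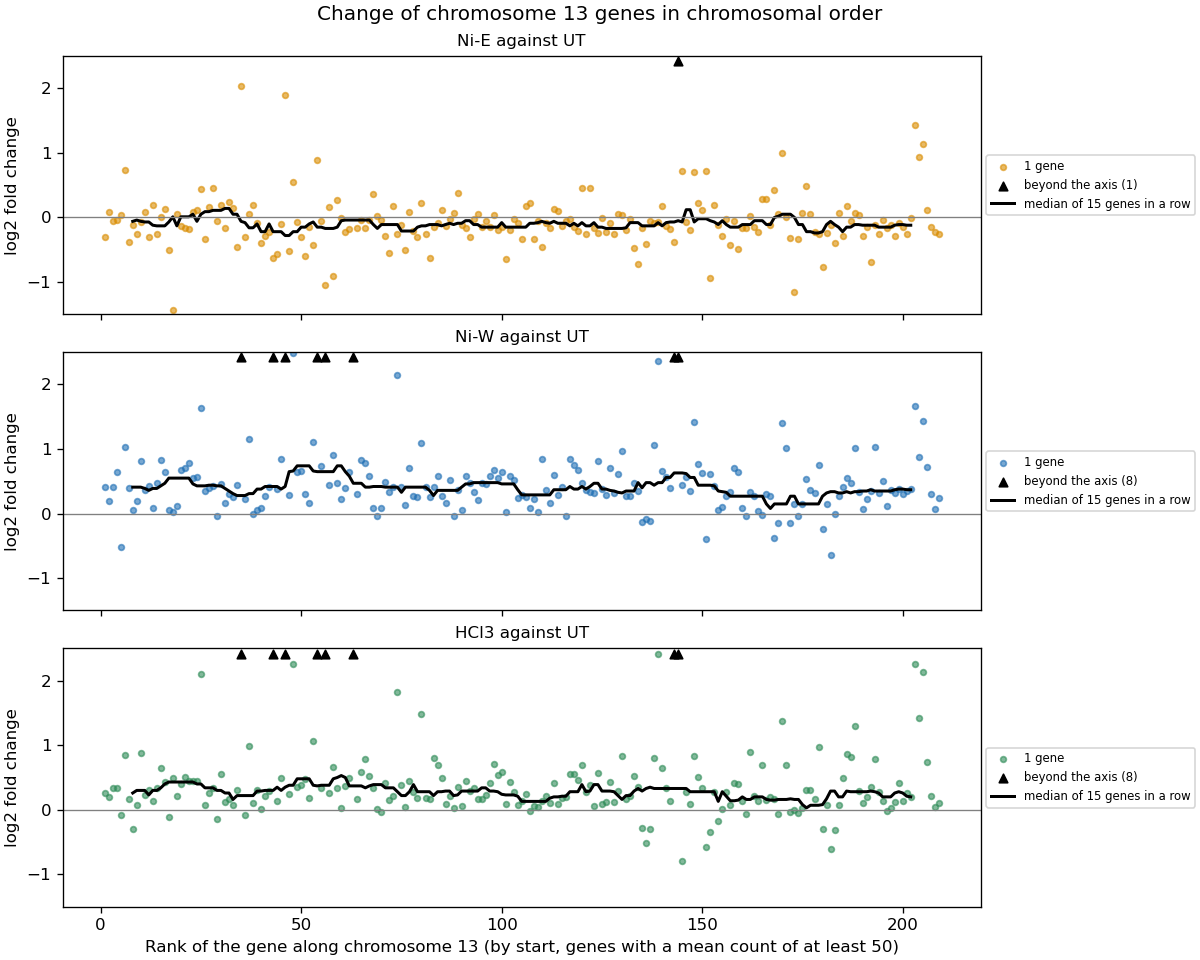
Log2 fold change of Ni-E, Ni-W and HCl3 against UT (vertical axis) by rank of the gene along chromosome 13 (horizontal axis, 209 expressed genes). Points are genes, triangles are genes above the axis limit, and the line is the median of 15 genes in a row, which stays between 0.08 and 0.74 in Ni-W and between 0.03 and 0.53 in HCl3.

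The height of the shift was uneven within that run. The median of 15 neighbouring genes in Ni-W against UT was highest, 0.74, around N4BP2L2 (start 33091030) and lowest, 0.08, around TM9SF2 (start 100153628). In HCl3 it was highest around EXOSC8, at 0.53, and lowest around KDELC1, at 0.03. All 195 such runs were above the median of all genes in Ni-W against UT, and also in HCl3 against UT. In Ni-E against UT 23 of 194 were above it. A lower penalty placed boundaries in Ni-W against Ni-E at MEDAG, RFXAP and SLITRK5, with a median of 0.94 from MEDAG to the gene before RFXAP.

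Among windows of 10 Mb the 30 to 40 Mb window had the highest median fold change against UT in both washed-out groups, 0.65 in Ni-W and 0.37 in HCl3. The medians of its 29 genes relative to UT were 0.59 and 0.60 in the Ni-W libraries and 0.41 and 0.39 in the HCl3 libraries, against -0.11 and -0.23 in Ni-E. The 100 to 110 Mb window, with 18 genes, stood lowest, at 0.19 and 0.17 (Ni-W) and 0.12 and 0.03 (HCl3). The second HCl3 library overlapped the range of UT there, from -0.07 to 0.07. Of the 10 windows, 8 had all 4 washed-out libraries above all UT and Ni-E libraries. The exceptions were the 100 to 110 Mb window and the 80 to 90 Mb window, which held 3 expressed genes. In the latter Ni-E was at 0.28 and 0.21, and 1 of its 3 genes was SLITRK5, described below.

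**Figure D3:**
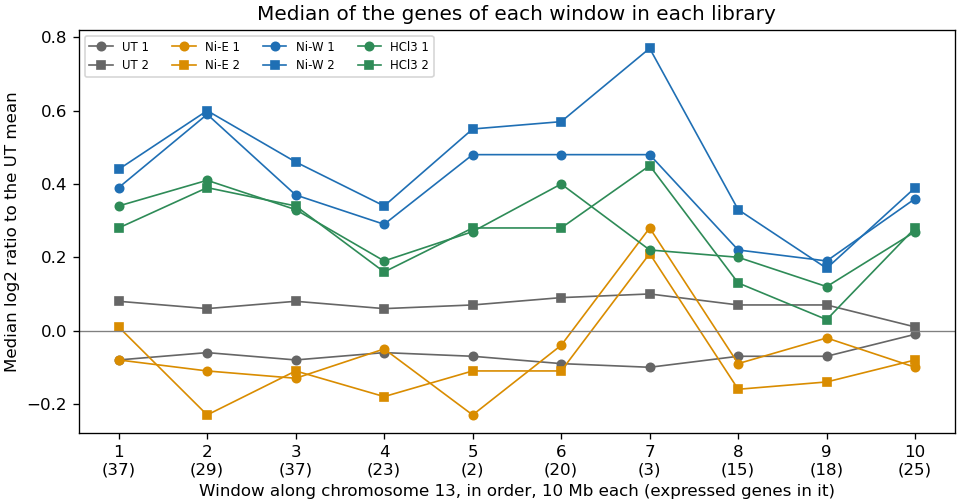
Median log2 ratio to the UT mean (vertical axis) of the expressed genes in 10 consecutive windows of 10 Mb along chromosome 13 (horizontal axis, number of genes in parentheses), with a line for each library. The Ni-W lines lie highest in every window and reach 0.59 and 0.60 in window 2.

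Set against the other chromosomes, chromosome 13 was among the highest 2 of 23 (autosomes and X) in Ni-W against UT and in HCl3 against UT. The other was chromosome 15, with medians of 0.44 and 0.32. In Ni-W against Ni-E chromosome 13 was the highest, at 0.51, with chromosome 15 at 0.46, but both were at 0.42 after removal of GC and length trends. In HCl3 against Ni-W both chromosomes had a median of -0.12. In Ni-E against UT chromosome 13 was the lowest of the 23, at -0.11, and chromosome 15 was at -0.03. After removal of GC and length trends chromosome 13 was at -0.01 there and chromosome 7 was lowest, at -0.09. These ranks are part of what singled the chromosome out and are not tested.

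**Figure D4:**
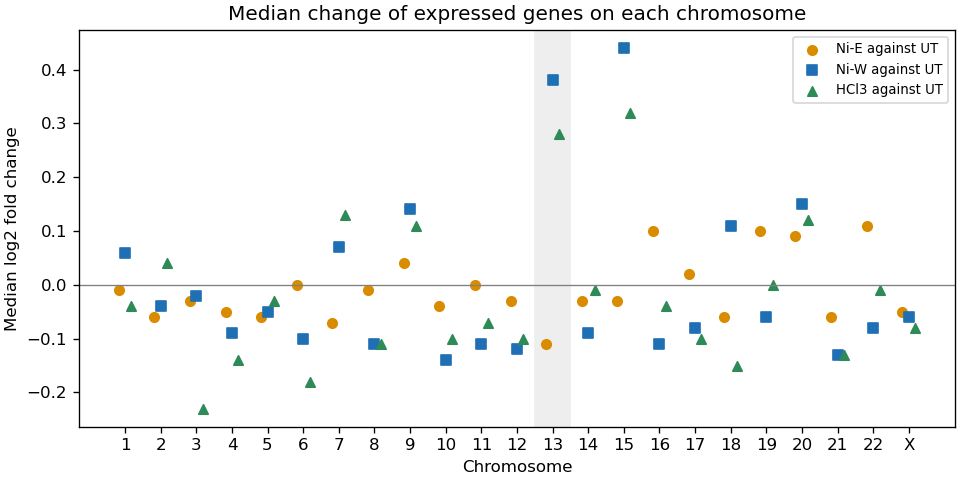
Median log2 fold change (vertical axis) of the expressed genes of each chromosome (horizontal axis) for 3 groups against UT, with chromosome 13 shaded. Chromosomes 13 and 15 reach 0.38 and 0.44 (Ni-W) and 0.28 and 0.32 (HCl3).

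The shift was described across GC content, length and UT level of the genes. By GC content, the median in Ni-W against UT was 0.40 in the lowest 70 genes and 0.36 in the highest 70. In HCl3 the corresponding medians were 0.22 and 0.34. By length of the gene body, with group medians of 16.5 and 154 kb in the shortest and longest 70 genes, the shift in Ni-W was 0.41 and 0.37. By mean RPKM in UT, the lowest and highest 70 genes had medians of 0.55 and 0.35 in Ni-W and of 0.43 and 0.21 in HCl3. The shift was thus larger in genes low in UT, although the UT values also enter these fold changes. The medians were positive in all 3 classes of each property in both washed-out groups.

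Counts of called genes followed the medians. A gene was called at a DESeq2 adjusted P value under 0.05 and a change of at least 1.5-fold. In Ni-W against UT 80 of the 292 chromosome 13 genes tested (27.4%) were called higher and 3 lower, where 10.9% of all genes tested were called higher and 4.83% lower. In HCl3 against UT 53 of 289 (18.3%) were higher and 2 lower, with 11.1% and 3.74% of all genes. Without the first or the second HCl3 library the total of 55 calls became 30 or 34. In Ni-E against UT 4 of 252 were higher and 8 lower, with 3.75% and 2.05% of all genes, and the total of 12 became 5 without Ni-E replicate 1 or without UT replicate 2. Nothing is read from these counts, since the same contrasts chose the chromosome.

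Between treated groups, 100 of 292 chromosome 13 genes (34.2%) were called higher in Ni-W than in Ni-E, against 11.7% of all genes tested, and 5 lower (1.71%), against 8.81%. HCl3 had 75 of 293 genes (25.6%) higher than Ni-E and 3 lower, against 10.4% and 6.78% of all genes. HCl3 had 5 of 277 genes higher than Ni-W (1.81%) and 8 lower (2.89%), against 3.10% and 1.66% of all genes. Those 13 calls were 5, 3 and 5 without HCl3 replicate 1, HCl3 replicate 2 and Ni-W replicate 1. The counts over Ni-E were above the background in one direction and below it in the other. Those between HCl3 and Ni-W were few either way. The Ni-E and washed-out libraries also entered the contrasts that chose the chromosome, so these counts are a description only.

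Most genes of the shift were below the 1.5-fold limit but did not overlap between groups. Both Ni-W libraries were above both UT libraries for 168 of 209 genes (80.4%), against 34.1% of all expressed genes. Both HCl3 libraries were above both UT libraries for 152 (72.7%), against 34.9%. Above both Ni-E libraries were both Ni-W libraries for 172 genes (82.3%) and both HCl3 libraries for 163 (78.0%), against 37.9% of all expressed genes in either case. Both HCl3 libraries were below both Ni-W libraries for 114 genes (54.5%), against 33.1%. Both Ni-E libraries were below both UT libraries for 87 genes (41.6%), against 29.5%.

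The largest differences belonged to genes with few or no reads in UT and Ni-E. FREM2, SLAIN1, CCNA1, FRY, MEDAG and FLT1 reached the minimum mean count through the washed-out groups alone, so their differences from Ni-E are given without a P value. FREM2, at chr13:39261173-39461267 (+), encodes an extracellular matrix protein of the basement membrane. It had 0 reads in all 4 UT and Ni-E libraries, 245 and 183 reads in Ni-W (0.29 and 0.33 RPKM), and 23 and 18 reads in HCl3 (0.03 and 0.03 RPKM). Both washed-out groups were above the libraries without reads, and Ni-W was well above HCl3. Against a floor of 3 reads in each library of the group at 0, FREM2 in Ni-W exceeded Ni-E at least 64.7-fold, and in HCl3 at least 6.23-fold. Without HCl3 replicate 1, FREM2 was no longer called in HCl3 against Ni-E.

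SLAIN1, at chr13:78315295-78338377 (+), encodes a protein that binds the growing ends of microtubules. Its RPKM was 0.04 and 0.07 (UT), 0.05 and 0.05 (Ni-E), 5.81 and 6.22 (Ni-W) and 2.89 and 3.00 (HCl3). UT and Ni-E, each with few reads, were clearly below HCl3, which was below Ni-W without overlap. From 3 and 3 reads in Ni-E, the ratio of Ni-W to Ni-E was 188 (95% interval 86 to 512, exact Clopper-Pearson) and that of HCl3 to Ni-E was 92.9 (42.5 to 254). Intervals and floors cover counting error only.

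CCNA1, at chr13:37006409-37017019 (+), encodes an A-type cyclin that is known mainly from the germ line. Its RPKM was 0.37 and 0.28 (UT), 0.11 and 0.24 (Ni-E), 7.72 and 7.36 (Ni-W) and 2.98 and 3.16 (HCl3). The 4 groups did not overlap, with Ni-E lowest and Ni-W highest. The log2 fold change of Ni-W against Ni-E was 5.68 (SE 0.37), and that of HCl3 against Ni-E was 4.36 (SE 0.43).

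FRY, at chr13:32605437-32870776 (+), encodes a microtubule-binding protein of the spindle. Its RPKM was 0.00 and 0.01 (UT), 0.00 and 0.04 (Ni-E), 0.60 and 0.53 (Ni-W) and 0.34 and 0.31 (HCl3). Washed-out libraries were above all others, and Ni-W was above HCl3. The log2 fold change against Ni-E was 4.78 (SE 1.09) in Ni-W and 3.97 (SE 0.55) in HCl3. MEDAG, a gene linked to adipocyte differentiation, had 0.13 and 0.20 RPKM (UT), 0.13 and 0.09 (Ni-E), 1.12 and 1.33 (Ni-W) and 1.67 and 1.88 (HCl3). Here the order of the washed-out groups was the other way round, and HCl3 exceeded Ni-E by a log2 fold change of 4.01 (SE 0.47), while the 0.52 between HCl3 and Ni-W did not pass the test (DESeq2 adjusted p = 0.176).

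**Figure D5:**
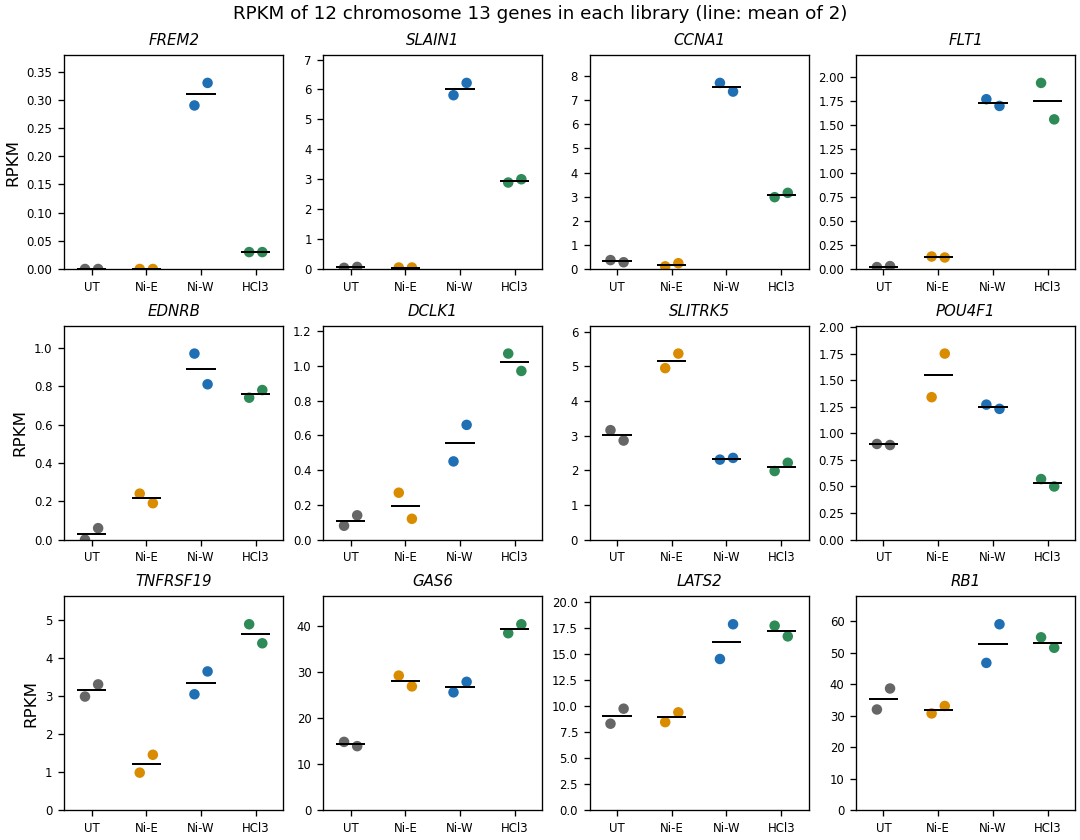
RPKM (vertical axis, starting at 0) of 12 chromosome 13 genes in each library of the 4 groups (horizontal axis), with a line at the mean of 2 libraries. SLAIN1 goes from 0.07 or less in UT and Ni-E to 6.22 in Ni-W, whereas RB1 goes from 38.62 or less to at least 46.73 in the washed-out libraries.

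Genes that went from the floor to a measurable level were next counted over the whole chromosome. With at most 3 reads in each UT and Ni-E library and more than 3 in each Ni-W and HCl3 library, there were 12 of the 530 genes (2.26%), against 205 of all 25411 (0.807%). The reverse pattern was found for 0 of the 530 and for 15 of all genes (0.0590%). The 12 were ATP8A2, KL, TRPC4, FREM2, PCDH17, PCDH20, DACH1, GPC5, HS6ST3, LINC00460, TNFSF13B and F10, a list drawn up after the values were seen and therefore not tested.

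Several of them lie in the gene-poor stretch between the PCDH17 start at 58205789 and the MZT1 start at 73282495. When the minimum mean count was lowered to 10, boundaries set off this stretch alone, in Ni-W against UT and in HCl3 against UT. Of its 6 genes at that minimum, 4 were low. The protocadherin PCDH17, a neuronal cell adhesion protein, had 0 and 0 reads (UT), 1 and 0 (Ni-E), 80 and 55 (Ni-W) and 21 and 18 (HCl3). PCDH20, of the same family, had 0 and 0 reads (UT), 1 and 0 (Ni-E), 56 and 38 (Ni-W) and 13 and 21 (HCl3). PCDH9 had 0 and 1 reads (UT), 8 and 12 (Ni-E), 141 and 67 (Ni-W) and 70 and 66 (HCl3). The 3 protocadherins were thus near 0 in UT and above their Ni-E counts in all 4 washed-out libraries. DACH1, a transcription factor of organ development, had 0 reads in every UT and Ni-E library, 48 and 25 reads (Ni-W) and 18 and 18 (HCl3).

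The other 2 genes of the stretch were expressed in all groups. DIAPH3, a formin that builds actin filaments, had 23.93 and 28.47 RPKM (UT), 25.19 and 26.34 (Ni-E), 40.61 and 46.88 (Ni-W) and 38.24 and 35.75 (HCl3). DIAPH3 was called higher in Ni-W than in UT and rose over Ni-E by 0.78 (SE 0.10), far less than its low neighbours. No P value is given for this rise, since DIAPH3 was added after its values were seen. TDRD3, a reader of arginine methylation, was the other and was not called in any of the 6 comparisons. The boundaries thus rested on the 4 low genes, whose fitted fold changes start from counts at or near 0.

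Ni-E differed from UT at 12 genes of the chromosome, in both directions. TNFRSF19, a receptor of the tumour necrosis factor family, had 2.99 and 3.31 RPKM (UT), 0.99 and 1.46 (Ni-E), 3.05 and 3.65 (Ni-W) and 4.89 and 4.39 (HCl3). It was lowest in Ni-E, and HCl3 lay above UT. ITGBL1, a secreted protein with repeats like those of integrin beta chains, had 4.13 and 5.40 RPKM (UT), 2.28 and 2.25 (Ni-E), 5.04 and 5.40 (Ni-W) and 5.27 and 4.94 (HCl3). Only Ni-E stood apart among its 4 groups. The log2 fold changes of Ni-E against UT were -1.43 (SE 0.23) for TNFRSF19 and -1.16 (SE 0.19) for ITGBL1. In Ni-W against Ni-E the 2 genes rose by 1.45 (SE 0.22) and 1.30 (SE 0.17). No P value is given for these rises, since the 2 genes were picked for their low values in the same Ni-E libraries.

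Other genes among the 8 that were lower in Ni-E are regulators. SMAD9, which carries bone morphogenetic protein signals to the nucleus, had 1.88 and 1.99 RPKM (UT), 1.09 and 1.04 (Ni-E), 3.33 and 4.08 (Ni-W) and 3.23 and 3.06 (HCl3). The ephrin ligand EFNB2 had 3.47 and 3.89 RPKM (UT), 2.33 and 2.19 (Ni-E), 3.10 and 3.26 (Ni-W) and 3.13 and 3.11 (HCl3). The repressor KLF12 had 1.89 and 2.02 RPKM (UT), 1.17 and 1.30 (Ni-E), 2.48 and 2.62 (Ni-W) and 2.72 and 2.45 (HCl3). All 3 were lowest in Ni-E, but in the washed-out groups SMAD9 and KLF12 lay above UT and EFNB2 below it. SMAD9 was no longer called when any one of the 4 libraries was left out, nor EFNB2 without either Ni-E library or UT replicate 2. KLF12 was at -0.72 and was not called without Ni-E replicate 1 or UT replicate 2, nor, at -0.40, after removal of GC and length trends.

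The 4 genes higher in Ni-E than in UT were GAS6, TMEM255B, EDNRB and SLITRK5. GAS6, a ligand of the TAM receptor kinases, had 14.89 and 13.96 RPKM (UT), 29.31 and 26.96 (Ni-E), 25.67 and 27.95 (Ni-W) and 38.53 and 40.48 (HCl3). All treated groups were above UT, and HCl3 was highest. Its log2 fold change against UT was 0.93 (SE 0.13) in Ni-E, 0.88 (SE 0.12) in Ni-W and 1.42 (SE 0.11) in HCl3. The neighbouring TMEM255B had 0.71 and 0.72 RPKM (UT), 1.83 and 2.18 (Ni-E), 2.35 and 2.31 (Ni-W) and 3.34 and 3.72 (HCl3), with HCl3 highest as for GAS6. GAS6-AS2, a noncoding gene that starts beside GAS6 on the other strand, had 0.44 and 0.65 RPKM (UT), 1.23 and 1.21 (Ni-E), 1.40 and 1.60 (Ni-W) and 2.5 and 2.35 (HCl3). All 3 neighbours were lowest in UT and highest in HCl3. TMEM255B was not called in Ni-E when any library was left out or when GC and length trends were removed.

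EDNRB, the endothelin receptor type B, had 0.00 and 0.06 RPKM (UT), 0.24 and 0.19 (Ni-E), 0.97 and 0.81 (Ni-W) and 0.74 and 0.78 (HCl3). Its level was near the floor in UT, and its call in Ni-E was lost without either Ni-E library or without UT replicate 1. SLITRK5, a synaptic adhesion protein, had 3.16 and 2.86 RPKM (UT), 4.95 and 5.37 (Ni-E), 2.31 and 2.36 (Ni-W) and 1.98 and 2.22 (HCl3). It was the reverse of most of the chromosome, being highest in Ni-E and lowest in the washed-out groups. In Ni-W it fell by 1.14 (SE 0.15) and in HCl3 by 1.31 (SE 0.15), on the log2 scale and against Ni-E. No P value is given for these falls, since SLITRK5 was also picked for its high values in the same Ni-E libraries. The SLITRK5 call in Ni-E against UT was lost without either Ni-E library or without UT replicate 2.

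Genes of the cell cycle, mitosis and genome maintenance were called only higher in the washed-out groups than in UT or Ni-E, as were most called genes of the chromosome. Of 25 genes listed 24 were expressed, and their median against UT was 0.53 in Ni-W and 0.29 in HCl3. In Ni-W against Ni-E 13 of 25 tested rose and 0 fell, and the median was 0.65. In HCl3 against Ni-E 10 of 25 rose and 0 fell, with a median of 0.45. Against UT 12 of 25 and 4 of 24 were called higher in Ni-W and HCl3, and 0 of 24 were called in Ni-E. The medians for all expressed genes were -0.02 and -0.03 against Ni-E. For this and the following lists, 11.7% of all genes tested and 34.2% of those of chromosome 13 were called higher in Ni-W than in Ni-E, and 10.4% and 25.6% in HCl3 than in Ni-E. The corresponding shares higher than UT were 10.9% and 27.4% in Ni-W, 11.1% and 18.3% in HCl3, and 3.75% and 1.59% in Ni-E.

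RB1, the retinoblastoma protein that holds cells in G1, had 31.96 and 38.62 RPKM (UT), 30.71 and 33.08 (Ni-E), 46.73 and 58.98 (Ni-W) and 54.84 and 51.52 (HCl3). Every washed-out library was above every other library. RB1 rose by 0.73 (SE 0.12, DESeq2 adjusted p = 2.62e-09) in Ni-W and by 0.72 (SE 0.08, DESeq2 adjusted p = 2.54e-18) in HCl3 against Ni-E, on the log2 scale, and was under the 1.5-fold limit against UT. LATS2, a kinase of the Hippo pathway, had 8.30 and 9.74 RPKM (UT), 8.45 and 9.39 (Ni-E), 14.50 and 17.83 (Ni-W) and 17.69 and 16.67 (HCl3). It was among the genes called over both UT and Ni-E in both washed-out groups, as were CCNA1, BORA and the repair nuclease gene ERCC5. BORA, an activator of the mitotic kinase Aurora A, had 5.65 and 5.55 RPKM (UT), 5.91 and 6.04 (Ni-E), 11.35 and 11.15 (Ni-W) and 10.49 and 10.25 (HCl3).

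BRCA2, a protein of homologous recombination, had 2.43 and 2.93 RPKM (UT), 1.64 and 2.26 (Ni-E), 3.22 and 3.47 (Ni-W) and 3.5 and 3.05 (HCl3). The washed-out libraries were above all others by a small margin, and BRCA2 rose over Ni-E by 0.79 in Ni-W and 0.74 in HCl3 (SE 0.15 in both, DESeq2 adjusted p = 1.65e-06 and 3.79e-06). LIG4, the ligase of DNA end joining, had 9.92 and 12.32 RPKM (UT), 9.19 and 8.45 (Ni-E), 11.04 and 11.52 (Ni-W) and 9.78 and 8.88 (HCl3). Ni-W overlapped UT and HCl3 overlapped Ni-E, while UT and Ni-W lay above the other groups, and LIG4 was called in none of the 6 comparisons.

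Transcription and chromatin factors had calls in both directions. Of 25 listed 18 were expressed, with medians of 0.28 in both Ni-W and HCl3 against UT, and 3 of 21 and 2 of 20 tested were called higher, near the 10.9% and 11.1% of all genes. POU4F1 was called lower in HCl3. Against Ni-E 7 of 21 rose in Ni-W and 2 fell, and 5 of 21 rose in HCl3 and 1 fell. KLF5, a factor of epithelial proliferation, had 6.41 and 7.39 RPKM (UT), 4.66 and 5.66 (Ni-E), 9.14 and 10.59 (Ni-W) and 10.35 and 10.16 (HCl3). It was lowest in Ni-E and rose by 0.94 (SE 0.14, DESeq2 adjusted p = 1.24e-09) in Ni-W against Ni-E. FOXO1, a factor restrained by insulin signalling, had 0.93 and 0.94 RPKM (UT), 1.30 and 1.21 (Ni-E), 1.01 and 1.02 (Ni-W) and 1.24 and 1.23 (HCl3), and was not called anywhere.

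The members of this group called lower in a washed-out group were POU4F1, ZIC2 and ZIC5. DACH1, a factor of organ development, was called higher than UT and Ni-E in both washed-out groups, and ZIC5 was called higher in HCl3 than in Ni-W. POU4F1, a factor of sensory neurons, had 0.90 and 0.89 RPKM (UT), 1.34 and 1.75 (Ni-E), 1.27 and 1.23 (Ni-W) and 0.57 and 0.50 (HCl3). HCl3 was below all other libraries. POU4F1 fell by 1.54 (SE 0.29, DESeq2 adjusted p = 7.08e-07) in HCl3 against Ni-E and by 1.24 (SE 0.27, DESeq2 adjusted p = 8.18e-05) against Ni-W, on the log2 scale. The latter call was lost without HCl3 replicate 2. ZIC2, a zinc finger factor of the early nervous system, had 1.83 and 2.12 RPKM (UT), 2.81 and 2.71 (Ni-E), 1.46 and 1.65 (Ni-W) and 2.09 and 2.48 (HCl3). It fell by 0.83 (SE 0.22, DESeq2 adjusted p = 0.00101) in Ni-W against Ni-E, a call that was lost without Ni-W replicate 1 or Ni-E replicate 1. POU4F1 and ZIC2 were among the largest falls of these same comparisons and were named for that, so their P values are not independent of the picking.

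Among ligands, receptors and signalling regulators the medians against UT were 0.41 in Ni-W and 0.33 in HCl3, over 19 expressed genes of 31. In Ni-W against Ni-E 7 of 24 tested rose and 0 fell, and in HCl3 against Ni-E 8 of 24 rose and 0 fell. FLT1, a receptor of vascular endothelial growth factor, had 0.02 and 0.03 RPKM (UT), 0.13 and 0.12 (Ni-E), 1.77 and 1.70 (Ni-W) and 1.94 and 1.56 (HCl3). The washed-out groups overlapped with each other and were far above Ni-E, by 3.81 (SE 0.30) and 3.68 (SE 0.30) on the log2 scale. KCTD12, an auxiliary subunit of GABA-B receptors, had 0.72 and 0.66 RPKM (UT), 0.68 and 0.68 (Ni-E), 3.30 and 3.94 (Ni-W) and 4.03 and 3.66 (HCl3). It showed no separation of Ni-E from UT and rose over Ni-E by 2.41 (SE 0.18, DESeq2 adjusted p = 2.4e-37) in Ni-W.

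IRS2, an adaptor of the insulin receptor, had 2.34 and 2.30 RPKM (UT), 1.97 and 1.99 (Ni-E), 3.07 and 3.22 (Ni-W) and 3.39 and 3.40 (HCl3). It rose over Ni-E in both washed-out groups, by 0.67 and 0.76 (SE 0.15 and 0.14, DESeq2 adjusted p = 3.09e-05 and 2.66e-07). FGF9 and TNFSF11 stood for the silent end of the list, with a mean of 0.5 reads a library each. All endothelial markers were at or near 0 in the libraries that held FLT1 and EDNRB. Their summed RPKM was 0.01 to 0.03 (UT), 0.03 to 0.05 (Ni-E), 0.09 to 0.11 (Ni-W) and 0.06 to 0.1 (HCl3), and its relation to the 2 genes was not tested.

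Extracellular matrix, adhesion and junction genes had 7 expressed members of 21, and many of their calls came from low genes. The median against UT was 0.47 in Ni-W and 0.80 in HCl3. Against Ni-E 8 of 18 tested rose and 2 fell in Ni-W, and 10 of 18 rose and 2 fell in HCl3. COL4A1 and COL4A2, the type IV collagen chains of basement membranes, were called only in HCl3. COL4A1 had 16.17 and 15.37 RPKM (UT), 15.57 and 21.68 (Ni-E), 23.20 and 24.11 (Ni-W) and 29.67 and 29.74 (HCl3). COL4A2 had 35.07 and 28.86 RPKM (UT), 27.45 and 36.53 (Ni-E), 46.66 and 43.96 (Ni-W) and 58.17 and 58.52 (HCl3). For both collagens HCl3 was above Ni-W without overlap, by 0.31 (SE 0.07, DESeq2 adjusted p = 0.000335) and 0.35 (SE 0.07, DESeq2 adjusted p = 1.56e-05) on the log2 scale, less than 1.5-fold.

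LMO7, a protein of adherens junctions, had 8.45 and 9.54 RPKM (UT), 8.89 and 8.78 (Ni-E), 18.10 and 20.76 (Ni-W) and 16.55 and 16.09 (HCl3). It rose over Ni-E by 1.14 (SE 0.11, DESeq2 adjusted p = 1.1e-24) in Ni-W and by 0.87 (SE 0.09, DESeq2 adjusted p = 1.42e-21) in HCl3. The glypican GPC6, a cell surface proteoglycan, had 0.01 and 0.00 RPKM (UT), 0.03 and 0.03 (Ni-E), 0.30 and 0.34 (Ni-W) and 0.33 and 0.29 (HCl3). POSTN, the matrix protein periostin, had 0.43 and 0.44 RPKM (UT), 0.02 and 0.36 (Ni-E), 0.19 and 0.14 (Ni-W) and 0.57 and 0.54 (HCl3). HCl3 exceeded Ni-W by 1.74 (SE 0.47, DESeq2 adjusted p = 0.00294), and Ni-W lay below UT. The summed RPKM of the fibroblast list, given above, was likewise lower in Ni-W than in HCl3. Most of that sum was COL1A1, at 218.07 and 245.29 (Ni-W) and 431.38 and 454.16 (HCl3). LUM, of the same list, went the other way, at 0.12 and 0.07 (Ni-W) and 0.0 and 0.01 (HCl3). The part of the list in the POSTN difference was not tested.

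Genes of transport and metabolism had no call in the lower direction in any of the 6 comparisons. Such calls were rare on the whole chromosome, at 0.692% to 3.17% of its genes tested, against 1.66% to 8.81% of all genes tested. Of 28 listed 20 were expressed, and their medians against UT were 0.47 in Ni-W and 0.26 in HCl3. Against Ni-E 12 of 25 rose in Ni-W and 6 of 24 in HCl3. ATP7B, a copper exporter, had 1.75 and 1.70 RPKM (UT), 1.65 and 1.87 (Ni-E), 3.19 and 3.18 (Ni-W) and 2.59 and 2.71 (HCl3). SLC46A3, a lysosomal transporter, had 1.96 and 1.69 RPKM (UT), 1.67 and 2.34 (Ni-E), 4.19 and 4.14 (Ni-W) and 3.82 and 3.82 (HCl3). Both had all washed-out libraries on top, and against Ni-E ATP7B rose by 0.85 (SE 0.16, DESeq2 adjusted p = 4.85e-07) and SLC46A3 by 1.09 (SE 0.21, DESeq2 adjusted p = 9.09e-07) in Ni-W. SUCLA2, a subunit of succinyl-CoA ligase, had 21.95 and 24.35 RPKM (UT), 22.62 and 20.79 (Ni-E), 33.46 and 32.48 (Ni-W) and 27.27 and 26.84 (HCl3).

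Genes of the ribosome, protein folding and turnover showed a small shift, with 22 of 23 expressed. Their medians against UT were 0.28 in Ni-W and 0.13 in HCl3, and 1 and 0 of 22 tested were called higher. Against Ni-E 5 of 22 rose in Ni-W and 2 in HCl3, and 0 fell. UFM1, a ubiquitin-like modifier, had 15.14 and 17.04 RPKM (UT), 15.18 and 14.57 (Ni-E), 26.19 and 25.97 (Ni-W) and 24.92 and 22.70 (HCl3). DNAJC3, a cochaperone of the endoplasmic reticulum, had 15.57 and 18.94 RPKM (UT), 13.09 and 13.62 (Ni-E), 21.96 and 22.38 (Ni-W) and 19.79 and 17.90 (HCl3), so that HCl3 overlapped UT. TPT1, an abundant protein of growth control, had 204.78 and 202.22 RPKM (UT), 282.28 and 269.38 (Ni-E), 271.58 and 262.46 (Ni-W) and 266.23 and 277.86 (HCl3). Its level in Ni-E overlapped those of the washed-out groups, and Ni-W differed from Ni-E by -0.04 (SE 0.09, DESeq2 adjusted p = 0.751).

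Of 175 noncoding genes and microRNA hosts 7 were expressed. Their median against UT was 0.62 in Ni-W and 0.35 in HCl3, 4 of 35 and 2 of 31 tested were called higher, and 0 lower. Against Ni-E 4 of 35 rose in Ni-W and 4 of 33 in HCl3, shares near the 11.7% and 10.4% of all genes tested. MIR17HG, the host whose 6 microRNAs are printed above, had 0.67 and 0.79 RPKM (UT), 0.37 and 0.46 (Ni-E), 0.73 and 1.39 (Ni-W) and 0.59 and 0.66 (HCl3). Ni-E was lowest, and the 2 Ni-W libraries were far apart. MIR17HG rose by 1.54 (SE 0.38, DESeq2 adjusted p = 0.000255) in Ni-W against Ni-E. It fell by 0.95 (SE 0.32, DESeq2 adjusted p = 0.0227) in HCl3 against Ni-W, a call that no fit with 3 libraries kept.

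DLEU2, the host of miR-15a and miR-16, had 1.22 and 1.09 RPKM (UT), 0.92 and 0.82 (Ni-E), 2.02 and 2.23 (Ni-W) and 1.36 and 1.25 (HCl3). Ni-W was highest and Ni-E lowest, without overlap. DLEU2 rose by 1.29 (SE 0.28, DESeq2 adjusted p = 2.06e-05) in Ni-W against Ni-E and fell by 0.71 (SE 0.23, DESeq2 adjusted p = 0.0139) in HCl3 against Ni-W. DLEU1, which overlaps it on the other strand, had 2.86 and 3.24 RPKM (UT), 3.18 and 2.47 (Ni-E), 3.39 and 3.56 (Ni-W) and 3.59 and 3.30 (HCl3), and was not called. LINC00346, the 1 noncoding gene called lower in Ni-E than in UT, had 2.05 and 2.15 RPKM (UT), 1.14 and 1.57 (Ni-E), 2.65 and 2.82 (Ni-W) and 2.71 and 2.85 (HCl3).

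The 13 genes called between the washed-out groups included those with the largest increases. HCl3 fell below Ni-W by 3.37 for FREM2 (SE 0.35), by 1.32 for CCNA1 (SE 0.16, DESeq2 adjusted p = 1.01e-13) and by 1.02 for SLAIN1 (SE 0.16, DESeq2 adjusted p = 7.92e-09). FREM2 reached the minimum mean count through Ni-W, so no P value is given for it. The genes given a P value in this paragraph were picked as the largest changes of this same comparison. These 3 genes remained above every UT and Ni-E library in HCl3. DCLK1, a microtubule-associated kinase, had 0.08 and 0.14 RPKM (UT), 0.27 and 0.12 (Ni-E), 0.45 and 0.66 (Ni-W) and 1.07 and 0.97 (HCl3). It was higher in HCl3 than in Ni-W by 0.84 (SE 0.25, DESeq2 adjusted p = 0.00751), and GAS6-AS2 by 0.68 (SE 0.25, DESeq2 adjusted p = 0.041). Both calls were lost without either HCl3 library or without Ni-W replicate 1, when the DCLK1 difference was 0.57, and that of GAS6-AS2 also without Ni-W replicate 2. FAM155A, an auxiliary subunit of the sodium leak channel, was the 1 gene called lower than UT in both washed-out groups, with 3.5 and 4.29 RPKM (UT), 4.05 and 3.41 (Ni-E), 2.36 and 2.76 (Ni-W) and 2.91 and 2.42 (HCl3). Its call was lost without UT replicate 2 in both, without Ni-W replicate 1, and without either HCl3 library.

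Members just inside and just outside the minimum count show what the limit of 50 reads divides. UBAC2-AS1 and MIPEPP3, with means of 51.6 and 51.9 reads, had log2 fold changes of -0.02 and 0.47 in Ni-W against UT. N4BP2L2-IT2 and GPC6, with means of 48.6 and 49.6, had 0.88 and 4.99. Several named genes share their position with another on the opposite strand, among them FRY, EDNRB, POU4F1, GAS6, RB1, BORA, ITGBL1, COL4A2, DIAPH3, PCDH9, GPC5, GPC6, DLEU1, DLEU2, EXOSC8 and MIPEPP3. The partner of MIPEPP3 includes ZDHHC20, with a mean of 5871 reads. Use of the strand in counting was not stated, so reads of the partners cannot be told apart there. ERCC5 also overlaps the read-through gene BIVM-ERCC5 on its own strand.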

How the data were processed

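RNA-Seq of BEAS-2B cells was carried out in 8 libraries, 2 in each of 4 groups, which were assigned from the labels. The authors used STAR 2.4 and hg19, discarded multiply aligned reads, and deposited raw read counts per RefSeq gene. The deposited RPKM values are the authors' own scaling and carry 2 decimals. No library was pooled. Further versions and the use of strand are not given in the sources used here.

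Counts were analysed with DESeq2 1.42.0 in R 4.3.3 on the 4 libraries of each pair of groups (two-sided Wald test, Benjamini-Hochberg adjustment over all genes tested). Genes were called at an adjusted P value under 0.05 and at least 1.5-fold. The minimum mean count for maps was 50. Boundaries needed runs of at least 5 genes and a penalty of 2 × log(n) × noise scale. With 2 libraries a group, adjusted P values rest on a spread shared across genes. The depth of 26383920 to 45692298 reads sets the precision of low values, and 3 reads in a library were taken as the floor. Transcript GC content came from GENCODE by symbol, for all 209 expressed genes of the chromosome. Promoter and microRNA sequences came from RefSeq by symbol. Scripts were tested on simulated data, and figures were drawn with matplotlib 3.10.9.

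The members, gene lists and tests were chosen with earlier results of these data known. Named genes are, for each comparison, the 5 largest called changes each way among expressed genes with non-overlapping libraries, the genes at the boundaries, the 2 genes on each side of the minimum count, and members of 7 lists of chromosome 13 genes. Examples from the lists were to be the largest changes in Ni-W against Ni-E or HCl3 against Ni-W, and further members are named as well. DIAPH3, TDRD3 and the genes near the floor were added after their values were seen. Alternatives were the edgeR 4.0.16 quasi-likelihood test, TMM size factors, other count minimums and penalties, log2(RPKM + 1) and log2(RPKM + 0.1), removal of GC and length trends, 1 fit of all 8 libraries, a replicate block and leaving out each library. A crossed block, a minimum on the UT mean and centring on all genes were added after seeing the data. Chromatin data and other cells of the study were not analysed here.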

Additional observations from a re-analysis of the deposited data

Results flagged for a closer look

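Expressed chromosome 13 genes moved in opposite directions in Ni-E and in the washed-out groups. In every library of Ni-E the median was below both UT libraries, and in every library of Ni-W it was above them, and Ni-W against UT had a median of 0.38 on the log2 scale. The same held for Ni-E and HCl3, where the median of HCl3 against UT was 0.28. The difference between the 2 effects was not tested, because both share the UT libraries. The Ni-E side was small, at -0.11, and was at -0.01 after removal of GC and length trends, while the medians of Ni-W and HCl3 stayed above both UT libraries with that removal.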

How the results depend on the processing

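No result changed direction under any alternative. Of 575 alternatives for 43 called genes 86 lost the call, and of 96 for the boundaries 4 gave any. Medians of windows moved by more than the replicate spread in 162 of 720 alternatives, and counts of calls by over 1.5 times in 25 of 80. The cause of these changes was not tested. In Ni-E against UT 12 calls became 19 with edgeR and 19 in 1 fit of all 8 libraries, and the median of -0.11 became -0.01 without GC and length trends, -0.02 with log2(RPKM + 1) and -0.04 with log2(RPKM + 0.1). Without a fold threshold the calls, in the order Ni-E, Ni-W and HCl3 against UT, Ni-W and HCl3 against Ni-E, and HCl3 against Ni-W, were 25, 142, 106, 162, 146 and 44, and at 2-fold they were 4, 45, 34, 48, 39 and 8. HCl3 against Ni-W had 8 calls in the fit of all 8 libraries. Medians became 0.42 without GC and length trends and 0.42 with log2(RPKM + 1) in Ni-W against Ni-E, and -0.05 without those trends in HCl3 against Ni-W. In HCl3 against Ni-E they became 0.32 with log2(RPKM + 1), 0.40 at a minimum count of 10 and 0.40 when centred on all genes. A minimum count of 10 gave 2 boundaries in Ni-W and 2 in HCl3 against UT, and a smaller penalty gave 3 in Ni-W against Ni-E and 2 in HCl3 against Ni-W.

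Leaving out 1 library gave, in the same order, 5 to 11, 56 to 75, 30 to 57, 79 to 93, 52 to 70 and 3 to 10 calls, and medians of -0.15 to -0.05, 0.34 to 0.45, 0.21 to 0.35, 0.47 to 0.55, 0.34 to 0.40 and -0.16 to -0.09. The lone library of a group was then assumed to vary like the others.

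Libraries share only a suffix number. The difference between the first and the second library of a group was correlated across genes with that of another group at -0.145 to 0.212. With a replicate block the calls were 8, 72, 43, 93, 69 and 4, and with the block and GC and length trends removed 6, 74, 56, 74, 55 and 7. The crossed block, added after seeing the data, gave 10 in Ni-E and 44 in HCl3 against UT. With 2 libraries a group, small changes of low genes were not detectable at this depth.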
